A study of Mus musculus with 22 samples.

Results

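The genes described here encode membrane carriers of amino acids and hexoses. They were taken from the deposited expression table as every row whose symbol was Slc1a, Slc2a, Slc3a, Slc6a, Slc7a, Slc36a or Slc38a followed by a number, which gave 70 of the 55335 genes. The 7 families held 7 genes (Slc1), 12 genes (Slc2), 2 genes (Slc3), 19 genes (Slc6), 15 genes (Slc7), 4 genes (Slc36) and 11 genes (Slc38). Slc6a20a and Slc6a20b, whose symbols end in a letter, are Slc6 genes that this rule left out. Messenger RNA was measured by Smart-seq2, a full-length method for small inputs, in 22 libraries of pooled mouse embryos from B6D2F1 parents, with 15 embryos in each pool. In the knockdown (KD) groups, zygotes had received about 10 pL of a mixture of small interfering RNAs at 20 µM against the histone variant H2A.Z. The methods call the controls of the quantitative PCR noninjected, and do not state the treatment of the control embryos that were sequenced. Embryos were collected at the 2-cell stage, 43 to 44 h after hCG injection of the 8-week-old mothers (4 control and 3 KD libraries), as morulae at 78 h (4 control and 3 KD) and as blastocysts at 94 h (4 control and 4 KD). Libraries are named below by the number in their labels, in the order 1, 2, 4 and 5 (control) and 1, 2 and 4 (KD) for 2-cell embryos, 1, 2, 7 and 8 (control) and 1, 2 and 6 (KD) for morulae, and 1, 4, 5 and 6 in both blastocyst groups. The labels did not say that the libraries of a group came from separate collections, so the p-values measure the spread between libraries, part of which may be technical.

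Solute carriers move nutrients across the plasma membrane and across the membranes of organelles. They do so by facilitative transport, by exchange or with ions that flow down their gradient. Slc1 and Slc6 proteins are mainly sodium-coupled, Slc2 proteins are facilitative sugar transporters, Slc7 light chains work with an Slc3 heavy chain as exchangers, and Slc36 and Slc38 proteins carry small neutral amino acids, some of them at the lysosome. Cleavage-stage embryos are known to rely on pyruvate and to take up more glucose and amino acids as they approach implantation.

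The genes that encode H2A.Z were read first. H2afz, the main gene of H2A.Z, stood at 1244, 1236, 905 and 1178 FPKM (fragments per kilobase of transcript, scaled to the fragments of the library) in control 2-cell embryos and at 415, 139 and 112 FPKM in KD 2-cell embryos. In morulae it stood at 1158, 1336, 1511 and 1421 FPKM in controls and at 30.3, 25.7 and 29.0 FPKM after KD, and in blastocysts at 2656, 2431, 1945 and 2055 and 64.2, 67.2, 53.2 and 57.6 FPKM. The control and KD libraries of H2afz did not overlap at any stage. H2afv, which encodes the other form of H2A.Z, was 111, 118, 96.8 and 113 FPKM against 97.6, 85.4 and 83.7 FPKM in 2-cell embryos, and these ranges overlapped. It was 97.3, 113, 100.0 and 92.5 FPKM against 12.9, 11.0 and 9.90 FPKM in morulae and 49.9, 62.0, 54.5 and 63.5 FPKM against 19.9, 16.9, 10.6 and 13.9 FPKM in blastocysts, with no overlap. All tests were limma tests on log2(FPKM + 1) with p-values adjusted over every gene tested, and a gene passed at an adjusted p under 0.05. The log2 fold changes of H2afz were -5.41 (SE 0.167, adjusted p = 9.71e-08) in morulae and -5.19 (SE 0.195, adjusted p = 3.63e-08) in blastocysts, whereas at the 2-cell stage the value of -2.53 had an adjusted p of 0.543 and did not pass. Of the 100-base stretches of H2afz transcripts, 25.7% also occurred in Tmcc1 transcripts and 13.0% in those of Gm8203, so the remaining signal after KD is uncertain.

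The stage labels were read against marker lists. The 5 markers of the 2-cell stage, led by Zfp352, summed to 168 to 242 FPKM in control and 179.9 to 213 FPKM in KD 2-cell embryos, and to 1.46 to 6.03 FPKM in control morulae. The 7 oocyte-derived markers, led by Oosp1, summed to 754 to 1011 and 796 to 1049.6 FPKM in 2-cell embryos and to 4.90 to 10.4 and 8.29 to 11.1 FPKM in control and KD morulae. The 11 trophectoderm markers summed to 19.4 to 31.8 FPKM in control 2-cell embryos, 167 to 189.6 FPKM in control morulae and 1646 to 2345 FPKM in control blastocysts. Of 10 markers of cumulus or granulosa cells, 4 to 7 were at 0 in each 2-cell library, with sums of 11.9, 6.59, 18.9 and 18.4 FPKM in controls and 8.25, 11.9 and 9.58 FPKM after KD. Most of this was Amhr2, at 8.60, 5.13, 17.1 and 16.9 FPKM in the controls, where libraries 4 and 5 were also the highest in Slc1a1 and Slc1a5, and the part of these cells in the 2-cell values was not tested. Of the same markers 6 to 8 were at 0 in each morula and blastocyst library, and Amhr2 made up most of the remaining 4.13 to 6.70 FPKM in control and 4.28 to 6.72 FPKM in KD blastocysts.

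The levels of the 70 genes were read before any comparison. Of the 70 genes, 2 were listed at 0 in all 22 libraries, and 43 did not reach 1 FPKM in any library. A mean of at least 1 FPKM was reached by 10 genes in control 2-cell embryos, 8 in KD 2-cell embryos, 14 in control morulae, 13 in KD morulae, and 18 in each blastocyst group. As shares of the 70 these were 11.43% to 25.71%, and 18.77% to 21.43% of all 55335 genes reached this mean in the same groups. Only 3 of the 70 did so in every group and 10 had a mean of at least 10 FPKM in some group. With a filter of at least 1 FPKM in at least 3 libraries of a comparison, 23 genes were tested in at least 1 comparison and 47 in none. Those never tested included Slc2a2 (at most 0.00860 FPKM in any library) and Slc2a4 (at most 0.412 FPKM), the glucose transporters of liver and of insulin-responsive tissue, and the cationic amino acid transporters Slc7a1 (at most 0.574 FPKM), Slc7a2 (at most 0.788 FPKM) and Slc7a3 (at most 0.947 FPKM). The glycine transporter Slc6a9 reached at most 1.23 FPKM and averaged 0.823 FPKM in control 2-cell embryos, uncertain because 1986 of its 5141 exonic bases overlap genes on the other strand. Slc3a1, the second heavy chain, averaged 0.798 FPKM there, also uncertain because 601 of its 2271 exonic bases overlap Prepl on the other strand. Slc7a8, a light chain for neutral amino acids, did not exceed 0.187 FPKM, and the proton-coupled carriers Slc36a1 and Slc36a4 did not exceed 0.590 and 0.0639 FPKM. Because a gene passes the filter more easily where it is high, counts over the tested genes are descriptions of those genes and not of all 70. The fold changes, which include a pseudocount of 1, understate the change of genes with low FPKM.

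Levels were compared between genes as FPKM, which are per length. Summed over all 70 genes, the transporter signal was 64.6 to 91.7 FPKM in control 2-cell embryos, 275 to 362 FPKM in control morulae and 219 to 298 FPKM in control blastocysts. All genes together totalled 423915 to 481717 in control 2-cell embryos, 572000 to 599407 in control morulae and 646290 to 722576 in control blastocysts. Equal FPKM are thus not equal shares at different stages. The heavy chain Slc3a2 and the glutamate carrier Slc1a1 were the highest members in control 2-cell embryos, at 26.5 ± 3.49 and 16.3 ± 6.47 FPKM (mean ± SD, n = 4), and in control morulae, at 92.4 ± 22.8 and 86.8 ± 13.2 FPKM. The ranges of the 2 genes overlapped in both groups. Within libraries, Slc3a2 was the higher in every control 2-cell library and in control morula libraries 1 and 2, and Slc1a1 in control morula libraries 7 and 8. In control blastocysts the top 3 by mean were Slc1a1 (40.8 ± 12.5 FPKM), the creatine carrier Slc6a8 (33.4 ± 7.29 FPKM) and Slc3a2 (33.3 ± 4.26 FPKM), and these too overlapped one another. Slc2a3 was above Slc3a2 in libraries 1 and 6 but was at 6.12 FPKM in library 5. A single gene carried most of the signal in several families. Slc1a1 made up 98.7% of the Slc1 sum in control morulae, Slc3a2 at least 97.1% of the Slc3 sum in every group, and Slc7a6 88.9% of the Slc7 sum in control morulae. In the Slc2 family the leading gene changed from Slc2a8 (57.3% in control morulae) to Slc2a3 (59.1% in control blastocysts, except in library 5, where Slc2a1 and Slc2a8 were higher), and in the Slc38 family Slc38a4 led with 32.2% in control morulae (25.0% for Slc38a7, which was the higher in library 2) and 58.7% in control blastocysts. The Slc36 sum stayed under 1 FPKM in every library.

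**Figure D1:**
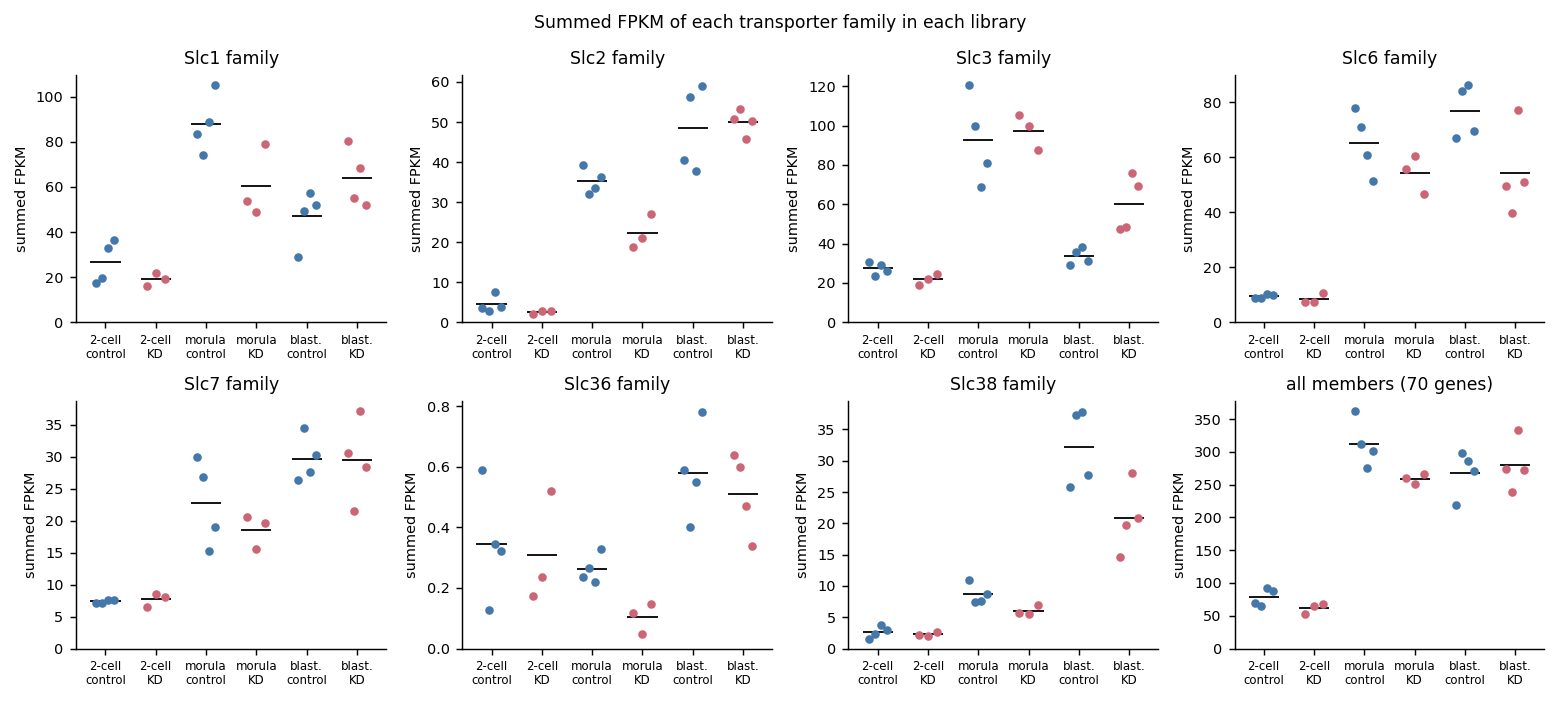
Summed FPKM of the genes of each of the 7 families, and of all 70 genes, on the vertical axis, in each library of the 6 groups on the horizontal axis (blue, control; red, KD; bar, group mean). In blastocysts the Slc3 sums of the 4 KD libraries (47.4 to 75.9 FPKM) lie above those of the 4 controls (29.3 to 38.3 FPKM), while the other families overlap between the groups.

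The stage comparisons of control embryos show how the genes behave without KD. From the 2-cell stage to the morula, 17 transporter genes were tested and all passed, 12 higher in morulae (42.97% of the 13655 genes tested passed as higher) and 5 lower (40.32% of all passed as lower). The median log2 fold change was 1.75 over the 17 genes and 0.10 over all genes tested. In pooled embryos, fewer cells of a type and less RNA per cell cannot be told apart, and the FPKM of a gene is relative to the other RNA of its library. None of the 17 genes overlapped between the stages, which was also so for 77.23% of all genes tested and 92.12% of those that passed. Values in parentheses below are the log2 fold change, its SE where given, and the adjusted p.

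Among the carriers of the 2-cell stage that fell, Slc1a5, an exchanger of glutamine and other neutral amino acids, was at 6.06, 6.16, 10.2 and 11.5 FPKM in 2-cell embryos and at 1.16, 0.389, 0.965 and 0.639 FPKM in morulae. Every morula library was below every 2-cell library (-2.37, SE 0.202, adjusted p = 3.77e-07). Slc7a11, the light chain of the cystine and glutamate exchanger, was at 2.28, 2.66, 2.23 and 2.02 FPKM in 2-cell embryos and at 0.0119, 0.0177, 0.00456 and 0.0263 FPKM in morulae. Its level was thus close to 0 in all morulae and it had a log2 fold change of -1.67 (adjusted p = 1.18e-07). Slc1a4, a carrier of alanine, serine and cysteine, averaged 1.69 ± 0.372 FPKM in 2-cell embryos and 0.0238 ± 0.0123 FPKM in morulae (-1.36, adjusted p = 3.30e-07). The branched-chain amino acid and proline carrier Slc6a15 went from 5.58 ± 0.318 to 1.34 ± 0.318 FPKM (-1.50, adjusted p = 2.98e-06). For Slc7a5, the light chain for leucine and other large neutral amino acids, the means were 3.21 ± 0.420 and 1.03 ± 0.500 FPKM (-1.08, adjusted p = 0.000121). The order of these decreases depends on the pseudocount, and with 0.1 in place of 1 the log2 fold changes were -4.34 (Slc7a11), -3.81 (Slc1a4) and -3.31 (Slc1a5).

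The largest increases belonged to genes that were low in 2-cell embryos. Slc6a8, which imports creatine, was at 0.135, 0.508, 0.266 and 0.123 FPKM in 2-cell embryos and at 41.4, 33.6, 28.6 and 21.4 FPKM in morulae. Every morula library was far above every 2-cell library, with a log2 fold change of 4.61 (SE 0.184, adjusted p = 7.53e-10). Slc6a14, a carrier of neutral and cationic amino acids, was at 0.283, 0.545, 0.679 and 0.411 FPKM in 2-cell embryos and 21.2, 25.0, 19.8 and 18.2 FPKM in morulae (3.87, SE 0.161, adjusted p = 1.01e-09). Slc7a6, a light chain that exchanges cationic for neutral amino acids, was at 0.194, 0.396, 0.959 and 1.59 FPKM and then 27.0, 23.2, 13.4 and 17.4 FPKM. It rose by 3.58 (SE 0.248, adjusted p = 6.23e-08) and its 2-cell libraries ranged more widely, in proportion, than those of Slc6a14. The 3 tested glucose transporters also rose. Slc2a8, a mostly intracellular hexose transporter, was at 1.13, 1.14, 2.23 and 1.49 FPKM in 2-cell embryos and 26.6, 19.7, 17.1 and 17.5 FPKM in morulae (3.07, SE 0.166, adjusted p = 8.48e-09). Slc2a3, a high-affinity glucose transporter, was at 0.216, 0.402, 2.71 and 0.637 FPKM and then 6.02, 8.03, 10.5 and 11.0 FPKM (2.43, SE 0.318, adjusted p = 1.67e-05), with 2-cell library 4 above the other 3. Slc2a1, the basal glucose transporter of many cells, averaged 1.05 ± 0.493 FPKM in 2-cell embryos and 5.94 ± 1.47 FPKM in morulae (1.75, adjusted p = 5.34e-06).

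The heavy chain and the glutamate carrier, already abundant in 2-cell embryos, rose further. Slc3a2, which brings Slc7 light chains to the cell surface, was at 29.8, 22.1, 28.8 and 25.4 FPKM in 2-cell embryos and at 121, 99.8, 68.5 and 80.5 FPKM in morulae (1.73, SE 0.175, adjusted p = 1.68e-06). Slc1a1 was at 9.89, 11.9, 20.2 and 23.3 FPKM in 2-cell embryos and 81.4, 73.6, 87.7 and 105 FPKM in morulae (2.40, SE 0.239, adjusted p = 1.48e-06). The other genes that rose were the taurine carrier Slc6a6 (1.98, adjusted p = 7.21e-06), the system A carrier Slc38a4 (1.82, adjusted p = 2.31e-07), the GABA and taurine carrier Slc6a13 (1.63, adjusted p = 9.05e-07) and Slc38a7, a glutamine carrier of lysosomes (0.92, adjusted p = 0.000276). Exons of Slc1a1 share 2631 of their 8257 bases with the antisense gene 4430402I18Rik, and the files do not say that the libraries mark strand, so reads of the 2 genes cannot be told apart. The antisense gene had group means of 0.319 to 1.59 FPKM, against at least 10.9 FPKM for Slc1a1.

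From morula to blastocyst, 19 transporter genes were tested in controls, of which 6 rose (27.63% of the 11849 genes tested passed as higher) and 5 fell (28.80% passed as lower). Their median log2 fold change was 0.28, and that of all genes tested was -0.025. The control morulae are part of both stage comparisons, so the values of the comparisons are given side by side and are not independent.

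The genes with the largest increases were low in morulae. Slc6a13 was at 2.14, 1.59, 2.54 and 2.89 FPKM in morulae and 15.8, 22.9, 19.5 and 16.9 FPKM in blastocysts (2.51, SE 0.181, adjusted p = 5.80e-07). Slc38a4 was at 3.44, 1.80, 2.89 and 3.01 FPKM in morulae and 16.9, 22.6, 21.1 and 14.9 FPKM in blastocysts (2.32, SE 0.185, adjusted p = 1.29e-06). Both were among the genes that had risen from the 2-cell stage to the morula. Slc1a3, a glutamate and aspartate carrier, was at 0.705, 0.113, 0.230 and 0.176 FPKM in morulae and 5.23, 5.21, 3.65 and 4.63 FPKM in blastocysts (2.08, SE 0.178, adjusted p = 2.22e-06). The system A carrier Slc38a1 was at 0.808, 0.519, 0.659 and 0.847 FPKM and then 3.22, 5.88, 6.26 and 5.53 FPKM (1.77, SE 0.166, adjusted p = 4.33e-06). None of these 4 genes overlapped between the stages, which was also so for 50.59% of all genes tested and 84.15% of those that passed. Slc2a3 was at 6.02, 8.03, 10.5 and 11.0 FPKM in morulae and 31.9, 35.6, 6.12 and 40.7 FPKM in blastocysts, and blastocyst library 5 fell within the morula range while the other 3 stood well above it. Its log2 fold change of 1.26 (SE 0.489, adjusted p = 0.0449) passed narrowly. The adjusted p of Slc2a3 was 0.0527 with a pseudocount of 0.1 and 0.183 without the filter. It was also above 0.05 on leaving out morula library 1 (0.123), 2 (0.0875), 7 (0.0533) or 8 (0.0516), or blastocyst library 1 (0.107), 4 (0.111) or 6 (0.121). Without the low blastocyst library 5 the log2 fold change was 1.88 and passed. Slc38a6, named here after its values were seen, also passed (0.41, adjusted p = 0.0405). It did not pass without the filter and was not followed under the other settings. Up to 17.2% of the 100-base stretches of its transcripts occur in another gene, so its level is uncertain.

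The 5 genes that fell from morula to blastocyst included the most abundant ones of the morula. Slc3a2 was at 121, 99.8, 68.5 and 80.5 FPKM in morulae and 28.8, 35.7, 37.99 and 30.8 FPKM in blastocysts (-1.51, SE 0.163, adjusted p = 1.24e-05), a range that met that of 2-cell embryos. Slc2a8 was at 26.6, 19.7, 17.1 and 17.5 FPKM and then 3.39, 7.30, 10.0 and 6.54 FPKM (-1.57, SE 0.221, adjusted p = 8.86e-05). Slc6a6 was at 10.9, 9.41, 7.73 and 6.56 FPKM and then 0.975, 2.81, 3.15 and 3.39 FPKM (-1.55, SE 0.225, adjusted p = 0.000119). The stages did not overlap for any of the 3. Slc1a1 averaged 86.8 ± 13.2 FPKM in morulae and 40.8 ± 12.5 FPKM in blastocysts (-1.21, adjusted p = 0.000500), and Slc6a15 1.34 ± 0.318 and 0.574 ± 0.0967 FPKM (-0.60, adjusted p = 0.00290). Slc7a6, Slc6a8 and Slc6a14 did not pass, with log2 fold changes of 0.32, 0.021 and -0.13 and 95% confidence intervals of -0.10 to 0.74, -0.38 to 0.43 and -0.63 to 0.37. Slc2a1 did not pass (0.70, adjusted p = 0.0669), but did without morula library 8 (adjusted p = 0.0488) or blastocyst library 1 (0.00439).

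KD and control embryos were then compared within each stage to ask how KD of H2A.Z bears on these genes. At the 2-cell stage 9 transporter genes were tested and 0 passed in either direction, as did 0 of all 12160 genes (0% higher, 0% lower). By the same limma test 701 of all genes and 0 of the 9 had an unadjusted p under 0.05, and the lowest adjusted p of the 9 was 0.828. The median log2 fold change was -0.13 over the 9 genes and 0.0035 over all genes. The lowest unadjusted p belonged to Slc2a8, at 1.13, 1.14, 2.23 and 1.49 FPKM in controls and 0.754, 0.816 and 0.897 FPKM after KD. Its libraries did not overlap, nor did those of 6.776% of all genes tested. The log2 fold change of Slc2a8 was -0.39 (95% confidence interval -0.82 to 0.039) and the adjusted p was 0.828. Slc3a2 was at 22.1 to 29.8 FPKM in controls and 18.6 to 24.1 FPKM after KD (-0.24, adjusted p = 0.844), and Slc1a1 at 9.89 to 23.3 and 9.58 to 11.7 FPKM (-0.40, adjusted p = 0.839). The other 6 had log2 fold changes from -0.20 (Slc1a5) to 0.28 (Slc7a5). The 95% confidence intervals of Slc3a2 (-0.61 to 0.13), Slc1a1 (-0.97 to 0.16) and Slc6a6 (-0.76 to 0.50) all held 0.

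In morulae 14 transporter genes were tested and 0 passed as higher (4.232% of the 10989 genes tested passed as higher) and 0 as lower (9.036% passed as lower). By limma, 4 of the 14 had an unadjusted p under 0.05, as had 3352 of all genes tested. Of the 14, 5 had a log2 fold change above 0, and the median was -0.27 against 0.015 over all genes. KD and control libraries did not overlap for 2 of the 14, against 29.57% of all genes tested. Slc2a8 was at 26.6, 19.7, 17.1 and 17.5 FPKM in controls and 13.4, 9.85 and 13.3 FPKM after KD. Its groups did not overlap and the log2 fold change of -0.56 had an adjusted p of 0.0524. Slc6a13 was at 2.14, 1.59, 2.54 and 2.89 FPKM in controls and 0.469, 0.665 and 1.61 FPKM after KD, where library 6 lay just above the lowest control (-0.73, adjusted p = 0.0697). Slc38a7 was at 3.10, 1.99, 1.56 and 2.02 FPKM in controls and 1.18, 1.11 and 1.28 FPKM after KD, without overlap (-0.43, adjusted p = 0.112). Slc7a5 was at 1.71, 1.07, 0.816 and 0.537 FPKM and 1.86, 1.17 and 2.58 FPKM, with overlap (0.58, adjusted p = 0.107).

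These near-threshold morula values depended on the settings. Without scaling between libraries, Slc2a8 (-0.68, adjusted p = 0.0352) and Slc6a13 (-0.81, adjusted p = 0.0383) passed as lower in KD morulae. With ranges of label numbers as a batch they passed as well (adjusted p = 0.0403 and 0.0219), and also with the number as a block (0.0152 and 0.0351). The correlations between morula libraries, given in the closing section, followed these ranges of numbers. Leaving out KD library 6 gave Slc6a13 a log2 fold change of -1.004 (adjusted p = 0.0224), and it alone passed. Without the filter on low FPKM, 1 gene passed as lower, the lysosomal arginine sensor Slc38a9 (log2 fold change -0.73, adjusted p = 0.0429). It had missed the filter in the morula comparison, with 1.06, 0.956, 1.04 and 0.673 FPKM in control morulae and 0.0713, 0.111 and 0.201 FPKM in KD morulae, which did not overlap. Without scaling, 281 of all genes passed as higher and 1553 as lower in KD morulae, against 465 and 993 with scaling, and the median log2 fold change of all genes was -0.085, so that the direction of morula values near 0 is relative to the scaling.

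The abundant genes of the morula did not pass after KD. Slc1a1 was at 81.4, 73.6, 87.7 and 105 FPKM in controls and 52.4, 48.1 and 77.4 FPKM after KD, with KD library 6 within the control range (-0.44, adjusted p = 0.201). Slc3a2 was at 121, 99.8, 68.5 and 80.5 FPKM in controls and 105, 99.4 and 87.3 FPKM after KD, inside the control range in every KD library (0.23, adjusted p = 0.384). The interval of Slc3a2 was -0.14 to 0.59. Slc6a8 was at 21.4 to 41.4 FPKM in controls and 15.5 to 29.6 FPKM after KD (-0.32, adjusted p = 0.349), Slc7a6 at 13.4 to 27.0 and 13.1 to 17.2 FPKM (-0.22, adjusted p = 0.488), and Slc6a14 at 18.2 to 25.0 and 17.5 to 23.2 FPKM (0.0077, adjusted p = 0.980). Beside these values, the 8 markers of inner cell mass or epiblast, all in the table and led by Nanog or Tdgf1, summed to 203, 206, 242 and 258 FPKM in control morulae and to 101, 102 and 162 FPKM in KD morulae, where Sox2 was at 0 in library 1. Within this list Nanog fell, from a mean of 106 to 20.7 FPKM (-2.23, adjusted p = 0.00647), Klf2 rose (0.71, adjusted p = 0.0278), and Tdgf1 did not pass (-0.13, adjusted p = 0.757). The 6 markers of primitive endoderm summed to 28.0, 9.90, 10.5 and 9.01 FPKM in control and 9.53, 9.45 and 10.5 FPKM in KD morulae. Almost all of this was Gata6, with means of 14.2 and 9.62 FPKM, while Foxa2 and Sox7 were at 0 in every morula library. The trophectoderm list summed to 189.6, 167, 169 and 187 FPKM in control and 152, 134 and 188 FPKM in KD morulae. The part of these markers in the transporter values was not tested.

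In blastocysts the transporter genes changed in both directions after KD. The authors report that far fewer KD than control embryos formed blastocysts, whereas development to the morula was not affected. The KD pools of this stage may thus hold a selected minority or delayed embryos, and the part of this in their values was not tested. Of 21 genes tested, 7 were higher (16.71% of the 11828 genes tested passed as higher) and 5 lower (19.82% passed as lower). The median log2 fold change was 0.065 over the 21 genes and 0.0047 over all genes. Slc1a3, Slc6a13, Slc38a4, Slc38a9 and Slc6a14 fell, and Slc38a7, Slc3a2, Slc6a15, Slc2a8, Slc1a1, Slc38a2 and Slc7a5 rose. Of these 12 genes, 7 did not overlap between KD and control libraries, against 81.99% of all genes that passed and 34.51% of all genes tested. The control blastocysts are also part of the comparison with morulae above, so the values of a gene in the 2 comparisons are not independent.

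Slc1a3, the glutamate and aspartate carrier that rose from morula to blastocyst in controls, was at 5.23, 5.21, 3.65 and 4.63 FPKM in control blastocysts and 0.324, 0.277, 1.33 and 0.385 FPKM in KD blastocysts. KD library 5 stood above the other 3 KD libraries and still below every control. The log2 fold change was -1.88 (SE 0.210, adjusted p = 5.98e-05), with a 95% confidence interval of -2.34 to -1.43. The KD level was within the range of control morulae (0.113 to 0.705 FPKM) in 3 of the 4 libraries.

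Slc6a13, a GABA and taurine carrier, was at 15.8, 22.9, 19.5 and 16.9 FPKM in control blastocysts and 4.41, 4.55, 3.64 and 4.55 FPKM in KD blastocysts. The KD libraries lay close together and far below the controls, and the log2 fold change was -1.88 (SE 0.173, adjusted p = 1.73e-05). Slc38a4, a system A carrier that is imprinted in mouse, was at 16.9, 22.6, 21.1 and 14.9 FPKM in controls and 3.90, 7.01, 6.72 and 5.18 FPKM after KD. No KD library came near the lowest control, and the log2 fold change was -1.57 (SE 0.196, adjusted p = 0.000122). Slc38a9, which reports lysosomal arginine to mTORC1, was at 0.943, 1.25, 1.78 and 1.84 FPKM in controls and 0.306, 0.169, 0.425 and 0.377 FPKM after KD. It was low in both groups but did not overlap (-0.87, SE 0.153, adjusted p = 0.00107). Slc6a14, the carrier of neutral and cationic amino acids, was at 21.4, 30.4, 19.6 and 13.0 FPKM in controls and 10.6, 11.5, 10.2 and 14.5 FPKM after KD. Control library 6 lay below KD library 6, and the log2 fold change was -0.75 (SE 0.240, adjusted p = 0.0284). Slc6a14 no longer passed without the filter (adjusted p = 0.114), or without control library 1 (0.0667), control library 4 (0.0881), KD library 1 (0.0594) or KD library 5 (0.0761).

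Among the genes that rose, the heavy chain Slc3a2 was the most abundant that did not overlap. It was at 28.8, 35.7, 37.99 and 30.8 FPKM in control blastocysts and 47.2, 48.4, 75.7 and 69.1 FPKM in KD blastocysts. All KD libraries were above all controls, and below the levels of control morulae except libraries 5 and 6 (0.82, SE 0.163, adjusted p = 0.00225). Its partner Slc7a5, the leucine light chain, was at 0.580, 0.354, 0.594 and 0.784 FPKM in controls and 1.01, 0.864, 2.22 and 1.34 FPKM after KD. These ranges did not overlap although both were low, and the log2 fold change of 0.54 (SE 0.173, adjusted p = 0.0267) did not pass without the filter (adjusted p = 0.0800), without control library 4 (0.0847) or without control library 5 (0.0515). The branched-chain amino acid and proline carrier Slc6a15 was at 0.440, 0.647, 0.567 and 0.641 FPKM in controls and 0.968, 1.52, 1.91 and 3.08 FPKM after KD, with no overlap (0.81, SE 0.197, adjusted p = 0.00695).

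Slc38a7, the lysosomal glutamine carrier, was at 1.48, 2.64, 4.25 and 1.88 FPKM in control and 3.69, 4.55, 9.91 and 6.78 FPKM in KD blastocysts. Only control library 5 reached above the lowest KD library. The log2 fold change was 1.01 (SE 0.257, adjusted p = 0.00912), and it did not pass without the filter (adjusted p = 0.0571). The hexose transporter Slc2a8 was at 3.39, 7.30, 10.0 and 6.54 FPKM in controls and 13.2, 8.52, 18.5 and 9.49 FPKM after KD. Control library 5 lay above KD libraries 4 and 6, and the log2 fold change was 0.81 (SE 0.258, adjusted p = 0.0277). The glutamate carrier Slc1a1 was at 22.8, 43.3, 51.2 and 46.1 FPKM in controls and 78.5, 53.8, 64.6 and 49.4 FPKM after KD, where control library 5 lay above KD library 6 (0.63, SE 0.224, adjusted p = 0.0451). The system A carrier Slc38a2 was at 0.509, 0.757, 0.692 and 1.24 FPKM in controls and 1.01, 1.62, 3.36 and 1.33 FPKM after KD, with control library 6 above KD library 1 (0.60, SE 0.211, adjusted p = 0.0431).

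Several of these calls depended on the settings. Slc1a1 passed in 4 of 13 other settings, Slc38a2 in 6 of 13 and Slc2a8 in 7 of 13. The adjusted p of Slc1a1 was above 0.05 on leaving out control library 1 (0.114), 4 (0.0755) or 6 (0.0572), or KD library 1 (0.123), 4 (0.0617) or 5 (0.0678). For Slc38a2 this held without control library 1 (0.103), 4 (0.0905) or 5 (0.0885), or KD library 4 (0.0700) or 5 (0.0961). For Slc2a8 it held without control library 1 (0.0741) or 6 (0.0570), or KD library 1 (0.0712) or 5 (0.0802). Without the filter the values were 0.1495 (Slc1a1), 0.143 (Slc38a2) and 0.117 (Slc2a8), and without scaling 0.0659, 0.0666 and 0.0540. The remaining setting in which Slc1a1 did not pass is given in the closing section. The number of genes that passed as higher was 2 without KD library 5, 4 without control library 1, 4 without control library 4, 4 without KD library 4 and 4 without scaling, in place of 7. The number that passed as lower was 3 without control library 4, in place of 5. Part of this was due to the filter, since Slc6a15 fell below it without KD library 4, 5 or 6, Slc7a5 without KD library 1, 5 or 6, and Slc38a9 without control library 4, 5 or 6. Without the filter on low FPKM, Slc3a2 and Slc6a15 were the 2 higher genes that passed. Slc1a3, Slc6a13, Slc38a4 and Slc3a2 passed in all 13 other settings. Slc38a9 and Slc6a15 passed in the 10 in which they could be tested, which is not a like record. Slc38a9, Slc6a15 and Slc7a5 reached 1 FPKM only in the group where they were higher, so the filter favoured the direction of their calls. Without the filter the adjusted p was 0.00810 for Slc38a9 and 0.0416 for Slc6a15.

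**Figure D2:**
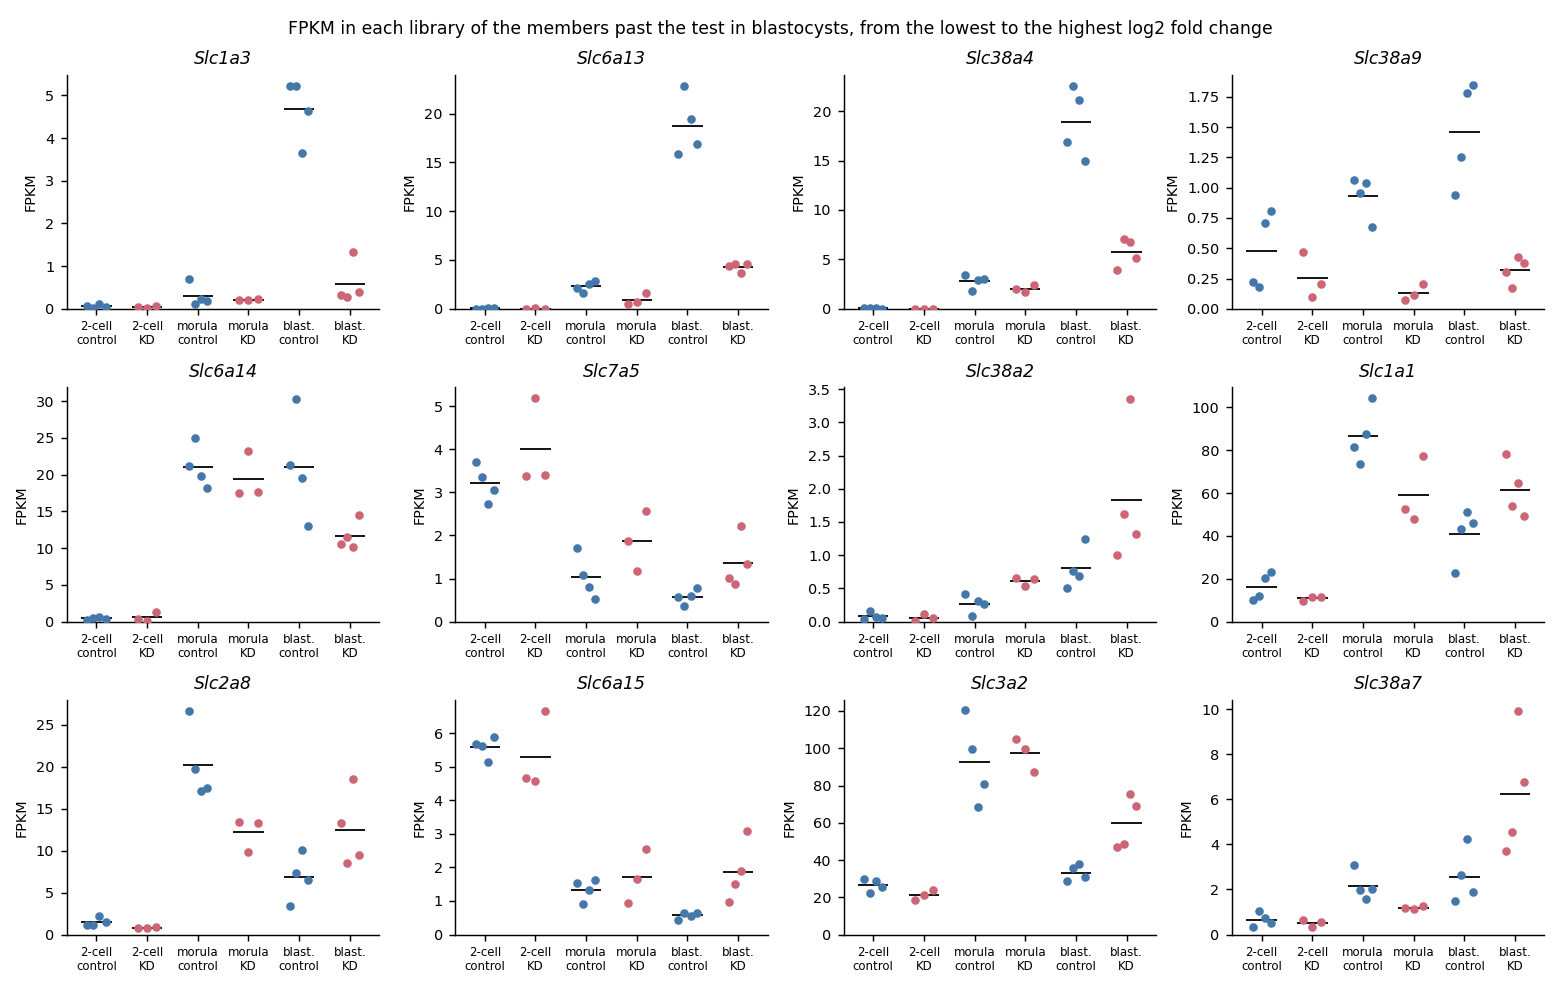
FPKM on the vertical axis of the 12 transporter genes that passed the limma test in blastocysts, in each library of the 6 groups on the horizontal axis (blue, control; red, KD; bar, group mean), ordered from the lowest to the highest log2 fold change. For Slc1a3, Slc6a13 and Slc38a4 the 4 control blastocyst libraries lie above all other libraries, whereas for Slc3a2 the 4 KD blastocyst libraries lie between 47.2 and 75.7 FPKM and the 4 controls between 28.8 and 37.99 FPKM.

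The remaining 9 genes tested in blastocysts did not pass. Slc2a3 was at 31.9, 35.6, 6.12 and 40.7 FPKM in control and 29.1, 31.4, 9.90 and 31.3 FPKM in KD blastocysts. In both groups library 5 was the lowest, and the log2 fold change of -0.0087 had a wide 95% confidence interval of -1.20 to 1.18. Slc2a1 was at 4.74, 11.9, 20.3 and 11.1 FPKM in controls and 7.88, 12.9, 16.9 and 9.09 FPKM after KD (0.065, adjusted p = 0.893), with library 5 the highest in both groups. Slc7a6, the most abundant Slc7 light chain, was at 23.9, 31.5, 24.4 and 25.5 FPKM in controls and 28.2, 18.9, 32.5 and 25.2 FPKM after KD. Its log2 fold change was -0.018 with an interval of -0.40 to 0.36. The creatine carrier Slc6a8 was at 27.1 to 42.9 FPKM in controls and 17.5 to 52.7 FPKM after KD (-0.20, adjusted p = 0.584). The taurine carrier Slc6a6 was at 0.975, 2.81, 3.15 and 3.39 FPKM and 2.35, 4.18, 8.10 and 5.72 FPKM (0.75, adjusted p = 0.0595), and Slc38a1 at 3.22, 5.88, 6.26 and 5.53 FPKM and 2.42, 3.92, 4.54 and 2.51 FPKM (-0.51, adjusted p = 0.0702). With ranges of label numbers as a batch, both passed (adjusted p = 0.00660 for Slc6a6 and 0.0421 for Slc38a1), as did Slc6a6 without KD library 1 (0.0173) and Slc38a1 without control library 1 (0.0304). In blastocysts this batch set library 1 of each group against the other libraries, a split that the labels do not give. Slc1a5, Slc38a6 and Slc7a7 had log2 fold changes of 0.19, 0.17 and -0.39. Exons of Slc7a7 share 232 bases with Oxa1l on the other strand, which had group means of 4.73 to 21.1 FPKM, so the low Slc7a7 values are uncertain.

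Whether the effect of KD differed between blastocysts and morulae was tested directly with an interaction term over the morula and blastocyst libraries. This fit was scaled over the libraries of both stages, so its differences are not exactly those of the separate log2 fold changes. Of 21 transporter genes tested, 2 had a higher KD effect in blastocysts (5.429% of the 12727 genes tested passed as higher) and 3 a lower one (6.317% passed as lower). Slc38a7 had a log2 fold change of -0.43 in morulae and 1.01 in blastocysts, with a difference of 1.40 in the interaction fit (SE 0.327, adjusted p = 0.0106). Slc2a8 had -0.56 in morulae and 0.81 in blastocysts, with a difference of 1.33 in the interaction fit (SE 0.333, adjusted p = 0.0158). This difference did not pass without KD morula library 2 (adjusted p = 0.0503) or without the filter (0.0650). The KD effect was lower in blastocysts for Slc38a4 (difference -1.38, adjusted p = 0.00420). Its level in control morulae allowed a log2 fold change down to -1.87, beyond the -1.57 seen in blastocysts. That limit is reached only where the gene is absent, and an equal proportional fall is smaller on this scale where levels are low. Across the other settings, a pseudocount of 0.1 among them, the difference of Slc38a4 was -1.50 to -1.25 and passed. The others of the 3 were Slc6a13 (difference -1.16, adjusted p = 0.0185) and Slc1a3 (difference -1.82, adjusted p = 0.000423). Slc1a3 was at 0.113 to 0.705 FPKM in control and 0.203 to 0.239 FPKM in KD morulae and had missed the filter there. The control morulae allowed log2 fold changes down to -0.35 for Slc1a3 and -1.68 for Slc6a13 on the log2(FPKM + 1) scale, so falls like those in blastocysts (-1.88 and -1.88) were not possible there. The differences of these 2 genes are therefore not read as a difference between effects of KD. For Slc6a13 the difference did not pass without KD morula library 6 (adjusted p = 0.0548), with a pseudocount of 0.1 (0.221) or without the filter (0.0595). For Slc3a2 the KD effects were 0.23 in morulae and 0.82 in blastocysts, and the difference in the interaction fit was 0.55 (adjusted p = 0.123), which did not pass. For Slc1a1 the difference was 1.02 (adjusted p = 0.0550). The difference for Slc1a1 passed without scaling (adjusted p = 0.0294), without KD morula library 6 (0.0263) and without control blastocyst library 5 (0.0399), and that for Slc6a14 (-0.79, adjusted p = 0.111) passed without control blastocyst library 6 (0.0291). The difference for Slc38a9 was -0.12 (adjusted p = 0.725) and that for Slc7a5 -0.072 (adjusted p = 0.899).

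**Figure D3:**
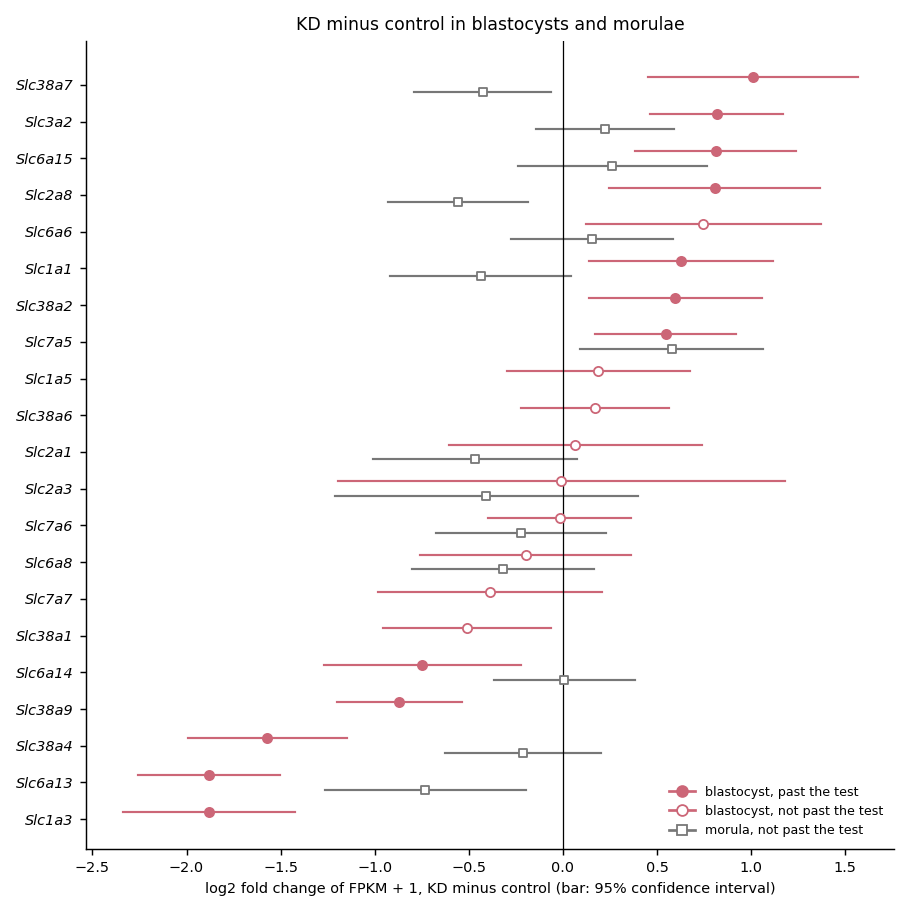
Log2 fold change of FPKM + 1, KD minus control, on the horizontal axis for the 21 transporter genes tested in blastocysts (red circles; filled where the gene passed) and, where tested, in morulae (grey squares), with 95% confidence intervals as bars and genes on the vertical axis. Slc38a7 and Slc2a8 lie below 0 in morulae (-0.43 and -0.56) and above 0 in blastocysts (1.01 and 0.81), and Slc1a3, Slc6a13 and Slc38a4 have the lowest values in blastocysts.

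The families were then read as sums over their genes, which are descriptions without a test. In blastocysts the Slc3 sum was 29.3, 35.9, 38.3 and 31.0 FPKM in controls and 47.4, 48.6, 75.9 and 69.2 FPKM after KD, without overlap. The Slc38 sum was 25.8, 37.3, 37.8 and 27.8 FPKM in controls and 14.6, 19.7, 28.1 and 20.9 FPKM after KD, where library 5 reached into the control range. Its leading gene was Slc38a4 in control blastocysts (58.7%). In KD blastocysts Slc38a7 (29.9%) and Slc38a4 (27.4%) had similar means, with Slc38a4 the higher in libraries 1 and 4 and Slc38a7 in libraries 5 and 6. The Slc1 sum was 29.1, 49.5, 57.2 and 52.0 FPKM in controls and 80.3, 55.2, 68.3 and 51.8 FPKM after KD, and the share of Slc1a1 in it was 87.0% and 96.3%. The Slc6 sum was 67.1, 84.2, 86.2 and 69.6 FPKM in controls and 49.5, 39.6, 77.1 and 50.9 FPKM after KD, with KD library 5 within the control range. The Slc2 sums of 37.8 to 59.0 FPKM and 45.9 to 53.3 FPKM and the Slc7 sums of 26.3 to 34.4 FPKM and 21.5 to 37.2 FPKM overlapped. In morulae the Slc2 sum was 39.4, 32.0, 33.5 and 36.3 FPKM in controls and 18.8, 21.1 and 27.1 FPKM after KD, without overlap, and led by Slc2a8 in both groups (57.3% and 54.5%). The Slc38 sum of morulae was 7.39 to 10.9 FPKM in controls and 5.47 to 6.93 FPKM after KD, and the Slc36 sum 0.220 to 0.327 FPKM and 0.0486 to 0.145 FPKM, while the Slc1, Slc3, Slc6 and Slc7 sums overlapped. Over all 70 genes the sum was 362, 312, 275 and 302 FPKM in control morulae and at most 267 FPKM in KD morulae. In blastocysts it was 219, 298, 285 and 270.3 FPKM in control and 274, 239, 333 and 272 FPKM in KD blastocysts, which overlapped. Dividing the sums by the scaling factors of the tests, an alternative chosen after the values were seen, changed some of this. In morulae the Slc38 sums (KD library 6 at 7.46 and control library 2 at 7.11) and the sums over all 70 genes (KD library 6 at 287 and control library 7 at 267) then overlapped, while the Slc2 and Slc36 sums did not. In blastocysts the Slc38 sums, at most 24.8 after KD and at least 26.6 in controls, then did not overlap, and neither did the Slc3 sums.

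Lineage markers moved with KD in the same blastocyst libraries. The trophectoderm list, with 11 of 11 genes in the table and none at 0, summed to 1857, 2345, 2008 and 1646 FPKM in control blastocysts and 883, 1124, 1058 and 936 FPKM in KD blastocysts, with Krt18 the most abundant except in control library 1, where Id2 was. Its libraries did not overlap. Within the list Id2 (-1.33, adjusted p = 0.000533), Krt18 (-1.02, adjusted p = 0.00126) and Elf5 (-1.23, adjusted p = 0.000510) fell, whereas Tfap2c (0.96, adjusted p = 0.00674), Tead4 (0.85, adjusted p = 0.00989) and Krt7 (0.64, adjusted p = 0.00679) rose. The 8 markers of inner cell mass or epiblast, led by Nanog, summed to 215, 234, 302 and 187 FPKM in controls and 152, 168, 297 and 212 FPKM after KD. The sums overlapped and were mostly Nanog after KD, which did not pass (0.29, adjusted p = 0.288), whereas Tdgf1 (-2.28, adjusted p = 3.00e-05) and Prdm14 (-1.03, adjusted p = 0.000525) fell. Those of primitive endoderm summed to 10.3, 11.3, 10.3 and 20.5 FPKM and 12.4, 10.2, 37.4 and 20.2 FPKM, with Gata6 the most abundant and Foxa2 at 0 in every library. The 2-cell list summed to 0.787, 0.964, 0.291 and 0.716 FPKM in controls and 3.08, 13.98, 3.30 and 9.55 FPKM after KD without overlap, led by Zfp352 or Tdpoz4 in KD libraries, and the oocyte-derived list to 1.89 to 2.62 and 2.14 to 4.78 FPKM. The part of these markers in the transporter results was not tested.

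Genes of connected pathways were followed in the same fits as lists of known function. Over all genes tested, 16.71% rose and 19.82% fell after KD in blastocysts with a median log2 fold change of 0.0047, and 4.232% rose and 9.036% fell in morulae with a median of 0.015. Of 33 genes of amino acid sensing by mTORC1, 31 were in the table and 23 were tested in blastocysts, where 9 rose and 5 fell after KD, with a median log2 fold change of 0.058. The leucine sensor Sesn2 had the largest increase, from 0.621 ± 0.380 FPKM in controls to 4.25 ± 1.95 FPKM (1.66, SE 0.230, adjusted p = 0.000236), and Flcn, which acts on the Rag GTPases, rose too (0.89, adjusted p = 0.00840). Of the Rag GTPases, Rragc (0.99, adjusted p = 0.0105) and Rragd (0.55, adjusted p = 0.0218) rose and Rraga (-1.46, adjusted p = 7.95e-05) fell. Of the Ragulator subunits that hold them at the lysosome, Lamtor1 rose (0.85, adjusted p = 0.00186), while Lamtor3 (-0.62), Lamtor4 (-0.92) and Lamtor5 (-0.76) fell. Nprl2, a subunit of the complex that inactivates RagA, fell (-0.78, adjusted p = 0.00261). In morulae 0 of 23 rose and 2 fell, Lamtor4 (-0.62, adjusted p = 0.0255) and Nprl2 (-0.99, adjusted p = 0.0110), with a list median of -0.28.

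The other lists were shorter. Of the 8 carriers of pyruvate and lactate and their partners, 5 were tested in blastocysts and 2 rose after KD, the chaperone Bsg (0.63, adjusted p = 0.0203) and the mitochondrial pyruvate carrier Mpc2 (0.50, adjusted p = 0.0322), with a list median of 0.24. In morulae 0 of the 5 passed by limma and the median was 0.45. Of 20 further amino acid and sugar carriers, which include Slc6a20a and Slc6a20b of the Slc6 family, 11 were tested in blastocysts, where Slc16a10 (0.84, adjusted p = 0.00645) and Slc43a3 (0.57, adjusted p = 0.0147) rose and Slc50a1 (-1.37, adjusted p = 0.00210), Ctns (-0.88, adjusted p = 0.0116) and Slc6a20b (-0.57, adjusted p = 0.0214) fell, with a median of 0.14. Slc16a10, a carrier of aromatic amino acids, was also the 1 of 9 that passed in morulae (0.72, adjusted p = 0.0311). Of 17 genes that control the surface level of these carriers, 6 were tested in blastocysts and 1 passed, the ubiquitin ligase Nedd4, which went from 3.74, 8.26, 4.57 and 6.43 FPKM in controls to 0.283, 0.956, 1.28 and 0.707 FPKM after KD (-1.88, SE 0.227, adjusted p = 9.75e-05). In 2-cell embryos 0 genes of any of the 4 lists passed, as for all genes tested.

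In the GRCm38 annotation, 21 of the 70 genes lay in 9 groups of neighbours with gaps under 500 kb, and 4 genes lay on the X chromosome, among them Slc6a8 and Slc6a14. The system A genes Slc38a1, Slc38a2 and Slc38a4 lay side by side at chr15:96571418-97055956 (485 kb) on the minus strand. These neighbours did not share a direction after KD in blastocysts, with log2 fold changes of -0.51 (not passed), 0.60 and -1.57 in that order. Slc6a13, at chr6:121300227-121337733, lay beside its relative Slc6a12, named here for its position, which reached 0.364 FPKM at most in any library. Slc1a3 was annotated at chr15:8634124-8710764, Slc3a2 at chr19:8706882-8723369, Slc38a7 at chr8:95835920-95853539, Slc38a9 at chr13:112660751-112738749 and Slc2a8 at chr2:32972990-32982083, all as protein-coding genes. Slc38a9 shared 182 exonic bases with the antisense gene Gm47827, Slc2a1 105 bases with Gm12868 and Slc6a6 117 bases with Gm44981.

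Promoters were read for the amino acid response element, to which ATF and C/EBP factors are known to bind. The core TGATGNAA was searched on both strands in the RefSeq promoters of the GRCm38.p6 assembly, 300 bases around each transcription start. It occurred in 1304 of all 32851 promoters (3.97%). Of the 70 genes, 51 were matched by symbol to 71 promoters, and 5 of these (7.04%) held the core, 4 of them among the 25 promoters of tested genes. The 4 belonged to Slc7a11, Slc1a4 and Slc7a7. The 2 promoters of Slc7a7 overlap and hold a site in common, so the counted promoters are not all separate sites. Slc7a11 and Slc1a4 are 2 of the 5 genes that fell from the 2-cell stage to the morula, and their windows are shown for that reason. Slc7a7 was not tested between these stages. A link between the core and the fall was not tested. The table held no promoter for the other 3 (Slc1a5, Slc6a15 and Slc7a5), so these were not searched. Each window is written from 5' to 3' along the gene, with the core or its reverse complement in capitals. The windows of Slc7a11 lie at chr3:50443656-50443695 and chr3:50443637-50443676, with the core starting 66 and 47 bases before the transcription start, and that of Slc1a4 lies at chr11:20332694-20332733, all on the minus strand.
Slc7a11, distal: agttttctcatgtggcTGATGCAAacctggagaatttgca
Slc7a11, proximal: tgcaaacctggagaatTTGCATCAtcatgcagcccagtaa
Slc1a4: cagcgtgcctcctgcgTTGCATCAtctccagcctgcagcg

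The presence of these letters describes the sequence and not the binding of a factor. Of the 12 genes that passed in blastocysts, none with a promoter in the table held the core, among them Slc1a3, Slc6a13, Slc38a4, Slc38a7 and Slc3a2.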

How the data were processed

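The FPKM of each gene in each library were computed by the authors, who aligned paired-end reads to the mouse genome GRCm38 (mm10) with STAR and quantified genes with StringTie 2.1.4, and were deposited as 1 table of 55335 genes, with 0 columns without a sample. The read counts on which the authors ran DESeq2 were not used here. The table gives no read numbers and whole reads could not be recovered from it, so the depth of each library is unknown.

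For each comparison, genes with at least 1 FPKM in at least 3 libraries of the comparison were kept, FPKM were scaled between libraries by the median of ratios, and log2(FPKM + 1) were tested with limma 3.58.1 in R 4.3.3 (linear model, moderated variances with a trend), with p-values adjusted by Benjamini and Hochberg over all genes tested. Levels in the text are deposited FPKM without this scaling. Controls and KD were compared within each stage, control morulae with control 2-cell embryos and with control blastocysts, and the KD effects of blastocysts and morulae with an interaction term. Python 3.11.15, numpy 2.4.6, pandas 2.3.3 and matplotlib 3.10.9 were used for sums and figures. The test was tested on simulated data with known changes. Alternatives were a pseudocount of 0.1, no filter, no scaling, each library left out in turn, the number in the label as a block, and ranges of these numbers as a batch. The block was used for KD against control within each stage and for control morulae against 2-cell embryos. The batch was used only for KD against control within each stage, and neither was used for the interaction test. Its ranges were 1 and 2 against the higher numbers in 2-cell embryos and morulae, and 1 against the higher numbers in blastocysts. The labels do not give these ranges.

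Named genes are those with a known role in embryos or in their family, and the genes of H2A.Z. The up to 10 genes past the test with the largest change in each comparison were named as well. The genes, marker lists and pathway lists were chosen with earlier results of these data known. Positions are from GENCODE M21 and promoters from RefSeq, and the genes of both were matched by identifier or symbol.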

Additional observations from a re-analysis of the deposited data

Results flagged for a closer look

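In 3 of 63 groups of 4 libraries, 1 library lay far from the other 3 by Dixon's test, which chance does in about 1 in 20 groups. All 3 were KD blastocyst library 5, with 1.33 FPKM for Slc1a3 (0.277 to 0.385 FPKM in the others), 9.90 FPKM for Slc2a3 (29.1 to 31.4 FPKM in the others) and 3.64 FPKM for Slc6a13 (4.41 to 4.55 FPKM in the others).

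The interaction test of the KD effects in blastocysts and morulae passed for 5 genes. The effect in blastocysts minus that in morulae, on the log2 scale, was -1.82 for Slc1a3, 1.33 for Slc2a8, -1.38 for Slc38a4, 1.40 for Slc38a7 and -1.16 for Slc6a13. Slc1a3 was at 0.113 to 0.705 FPKM in control morulae and missed the filter of the morula comparison, and its level there allowed a log2 fold change down to -0.35, and that of Slc6a13 down to -1.68. Both were short of the falls in blastocysts (-1.88 for each), so the values of these 2 genes are not read as a difference between effects of KD. No explanation of the other values was tested.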

How the results depend on the processing

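Of the 45 results of transporter genes that passed, the 44 of genes named by the rule were followed under the alternatives. Of these, 35 passed under every alternative in which they were tested and none reversed. The filter left out Slc38a9 and Slc6a15 (KD blastocysts), Slc7a5 (KD blastocysts) and Slc6a15 (control blastocysts against morulae) on leaving out 3 of the libraries each. Of their 548 values under the alternatives, 503 stayed past the threshold and 45 did not. Unless said otherwise, the cause of a change was not tested.

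Without the filter the number of genes that passed was 1 in place of 0 (lower in KD morulae), 2 in place of 7 (higher in KD blastocysts), 19 in place of 12 and 13 in place of 5 (higher and lower in control morulae than in 2-cell embryos), 10 in place of 6 (higher in control blastocysts than in morulae) and 1 in place of 2 (higher interaction). Without scaling it was 2 in place of 0 (lower in KD morulae) and 4 in place of 7 (higher in KD blastocysts). With ranges of label numbers as a batch, 2 in place of 0 were lower in KD morulae.

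On leaving out each library in turn, the counts ranged from 0 to 0 (KD 2-cell embryos, both directions, and higher in KD morulae), 0 to 1 (lower in KD morulae), 2 to 5 and 3 to 5 (higher and lower in KD blastocysts), 12 to 12 and 5 to 5 (control morulae against 2-cell embryos), 4 to 6 and 4 to 5 (control blastocysts against morulae), and 1 to 3 and 2 to 4 (interaction). Among genes that had not passed, the log2 fold changes below took both signs. In 2-cell embryos the ranges were -0.19 to 0.094 (Slc6a15), -0.23 to 0.0077 (Slc1a4) and -0.30 to 0.021 (Slc6a6). In morulae they were -0.68 to 0.075 (Slc2a3), -0.0091 to 0.33 (Slc6a6) and -0.12 to 0.11 (Slc6a14). In blastocysts they were -0.64 to 0.42 (Slc2a3), -0.24 to 0.32 (Slc2a1) and -0.088 to 0.099 (Slc7a6). Between control blastocysts and morulae they were -0.11 to 0.13 (Slc6a8), -0.11 to 0.20 (Slc38a7) and -0.29 to 0.083 (Slc6a14). For the interaction they were -0.29 to 0.21 (Slc7a7), -0.073 to 0.26 (Slc1a5), -0.25 to 0.80 (Slc2a3), -0.15 to 0.28 (Slc6a8), -0.016 to 0.29 (Slc38a2) and -0.26 to 0.13 (Slc7a5).

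Other settings also reversed values close to 0 that had not passed. With a pseudocount of 0.1 they became 0.0051 (Slc2a3 in blastocysts) and, for the interaction, -0.15 (Slc38a2), 0.066 (Slc7a5) and 0.22 (Slc38a9). Without scaling they became -0.11 (Slc6a14 in morulae) and 0.056 (Slc7a5, interaction). With the batch they became 0.0021 (Slc6a15 in 2-cell embryos) and -0.011 (Slc6a14 in morulae).

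The labels do not say that libraries of the same number belong together. The correlation of deviations between libraries of the same number was 0.0146 to 0.214 in 2-cell embryos, 0.0944 to 0.181 in morulae and -0.111 to 0.354 in blastocysts, and -0.0465 to 0.0353 between control morulae and 2-cell embryos, and not every library correlated best with its own number. The mean was above that of different numbers in each KD comparison (0.146 and -0.0488 in 2-cell embryos, 0.138 and -0.0282 in morulae, 0.0826 and -0.0288 in blastocysts). In morulae KD libraries 1 and 2 had correlations of 0.0944 to 0.181 with control libraries 1 and 2 and of -0.235 to -0.0945 with 7 and 8, and KD library 6 had -0.278 and -0.207 with 1 and 2 and 0.185 and 0.347 with 7 and 8. With the number as a replicate block, 2 in place of 0 genes passed as lower in KD morulae, and the numbers for KD 2-cell embryos (0 and 0), KD blastocysts (7 and 6) and control morulae against 2-cell embryos (12 and 5) were within 1.5 times of those without it. In KD blastocysts the block ended the call of Slc1a1 (adjusted p = 0.0620) and gave calls for Slc6a6 (0.00815) and Slc38a1 (0.0463). The block reversed Slc6a6 in 2-cell embryos (0.022) and morulae (-0.020) and Slc6a14 in morulae (-0.025). No paired analysis was possible because the groups share only the number 1, for control blastocysts against control morulae.

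The libraries are few and each is a pool, so failing the test does not show that a gene was unchanged. FPKM are relative to the other RNA of each library, and a change in total RNA would not show. Depth is unknown, so the precision of low FPKM cannot be stated. The methods name alternative sequencing instruments without saying which was used for each library. The sequencing run of each library is not given either, and the part of instrument or run was not tested. Messenger levels do not measure transport.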

Other observations

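Control blastocyst library 5 had 6.12 FPKM of Slc2a3, against 31.9, 35.6 and 40.7 FPKM in the other control blastocyst libraries, and had the highest Slc2a1 of that group, at 20.3 FPKM against 4.74, 11.9 and 11.1 FPKM.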
